A study of Saccharomyces cerevisiae with 30 samples.

Results

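Gcn5m is a budding yeast strain whose Gcn5, the histone acetyltransferase of the SAGA coactivator complex, carries a mutant bromodomain, and the quantity described here is how its response to sucrose differed from that of wild type (WT). The rule took 12 of the 30 RNA-seq libraries of the study, 3 each of Gcn5m in sucrose, Gcn5m in glucose, WT in sucrose and WT in glucose. In all of them BY4741 cells or cells of the mutant were grown in liquid culture and then held for 30 min in rich medium (YP) with 2% sucrose or 2% glucose. For each gene the interaction is the sucrose-minus-glucose difference in Gcn5m minus the same difference in WT, on the log2(FPKM + 1) scale, where FPKM is the number of fragments per kilobase of gene, scaled to the mapped fragments of the library. Of 6101 genes, the 5841 that averaged 1 FPKM or more over the 18 libraries of the deposited table were included and 260 were not. The gene just inside that limit averaged 1.01 FPKM and the gene just outside it 0.9995 FPKM. The same table holds Spt7m, a mutant of the bromodomain of the SAGA subunit Spt7, in both media. A second table holds Ada3-3KR, an acetylation mutant of the subunit Ada3, with a WT of its own. The labels give no allele, marker or number of independent clones for any strain. Nor do they state that the replicates of a group were grown separately; a p-value here reflects how far the 3 libraries of a group scatter, which can be technical scatter alone.

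SAGA is recruited to promoters by activators, acetylates histone H3 through Gcn5 and helps to deliver TATA-binding protein. A bromodomain is a module that binds acetylated lysine, and both Gcn5 and Spt7 carry one. Yeast prefers glucose: while it is present, genes for other sugars, for respiration and for fat breakdown are held down. Sucrose is used mainly after the secreted invertase Suc2 has split it into glucose and fructose. The shift to sucrose is therefore a mild release from glucose, which calls on the Snf1 kinase, on stress and nutrient regulators and on SAGA-dependent promoters.

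The promoters of 8 genes are shown because they hold the motif of 1 of 3 groups described below and had called interactions; they are not the most changed members of those groups in every case. Each run covers the 250 bases before the start codon and the first 50 coding bases, 5′ to 3′ on the gene's own strand, from the RefSeq genome of build R64. In the first set, from genes of fatty acid oxidation, capitals mark the triplets of an oleate response element, read here as CGG, 15 to 18 bases of any kind, and CCG. CTA1 (chrIV:969631-969930, minus strand) encodes peroxisomal catalase, POT1 (chrIX:41395-41694, minus strand) the 3-ketoacyl-CoA thiolase and ECI1 (chrXII:706991-707290, minus strand) an enoyl-CoA isomerase. In the second, from genes of purine and one-carbon synthesis, capitals mark TGACTC, the core bound by Gcn4 and Bas1. ADE17 (chrXIII:509231-509530, minus strand) makes IMP, MTD1 (chrXI:590145-590444, plus strand) encodes a methylenetetrahydrofolate dehydrogenase and SHM2 (chrXII:259352-259651, minus strand) the cytosolic serine hydroxymethyltransferase. In the third, from genes of iron uptake, capitals mark TGCACC or its reverse complement GGTGCA, the core bound by Aft1. ENB1 (chrXV:21262-21561, minus strand) encodes an enterobactin transporter and FIT2 (chrXV:1059281-1059580, plus strand) a cell wall mannoprotein that retains siderophores.
CTA1: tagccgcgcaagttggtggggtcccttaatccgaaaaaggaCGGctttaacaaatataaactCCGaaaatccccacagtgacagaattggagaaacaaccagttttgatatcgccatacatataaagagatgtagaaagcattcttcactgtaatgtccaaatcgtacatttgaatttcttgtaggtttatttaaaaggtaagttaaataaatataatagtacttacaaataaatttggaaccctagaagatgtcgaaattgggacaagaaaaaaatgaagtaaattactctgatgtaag
POT1: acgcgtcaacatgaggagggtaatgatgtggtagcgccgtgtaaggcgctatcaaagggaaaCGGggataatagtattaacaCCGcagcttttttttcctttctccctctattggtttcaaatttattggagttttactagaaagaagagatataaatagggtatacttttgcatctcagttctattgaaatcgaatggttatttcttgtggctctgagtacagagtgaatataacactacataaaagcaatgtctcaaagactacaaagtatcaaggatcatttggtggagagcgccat
ECI1: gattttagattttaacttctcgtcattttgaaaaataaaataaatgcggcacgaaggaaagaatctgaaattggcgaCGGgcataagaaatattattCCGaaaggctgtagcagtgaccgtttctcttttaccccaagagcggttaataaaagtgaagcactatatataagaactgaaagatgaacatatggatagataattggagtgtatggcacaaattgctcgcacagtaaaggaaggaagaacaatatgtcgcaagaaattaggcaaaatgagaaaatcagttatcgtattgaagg
ADE17: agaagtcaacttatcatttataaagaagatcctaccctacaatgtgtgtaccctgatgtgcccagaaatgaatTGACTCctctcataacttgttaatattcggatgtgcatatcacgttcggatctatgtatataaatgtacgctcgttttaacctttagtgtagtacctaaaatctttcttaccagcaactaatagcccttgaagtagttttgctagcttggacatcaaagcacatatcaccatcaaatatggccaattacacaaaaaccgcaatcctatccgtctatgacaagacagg
MTD1: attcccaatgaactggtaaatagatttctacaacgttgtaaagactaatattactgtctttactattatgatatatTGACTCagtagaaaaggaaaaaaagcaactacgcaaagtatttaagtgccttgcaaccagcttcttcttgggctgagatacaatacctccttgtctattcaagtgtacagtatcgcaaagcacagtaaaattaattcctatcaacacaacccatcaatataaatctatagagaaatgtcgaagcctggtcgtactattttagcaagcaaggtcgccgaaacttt
SHM2: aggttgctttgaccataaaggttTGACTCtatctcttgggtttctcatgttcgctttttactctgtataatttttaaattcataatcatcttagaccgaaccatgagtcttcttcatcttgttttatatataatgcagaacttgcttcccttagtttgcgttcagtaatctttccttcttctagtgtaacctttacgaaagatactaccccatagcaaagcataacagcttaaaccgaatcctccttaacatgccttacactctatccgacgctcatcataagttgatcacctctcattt
ENB1: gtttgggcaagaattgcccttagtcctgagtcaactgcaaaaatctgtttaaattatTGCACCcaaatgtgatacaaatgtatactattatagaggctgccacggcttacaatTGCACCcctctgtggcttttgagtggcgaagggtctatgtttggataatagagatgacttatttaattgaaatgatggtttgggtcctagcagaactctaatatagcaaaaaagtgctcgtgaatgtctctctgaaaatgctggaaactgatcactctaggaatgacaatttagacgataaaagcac
FIT2: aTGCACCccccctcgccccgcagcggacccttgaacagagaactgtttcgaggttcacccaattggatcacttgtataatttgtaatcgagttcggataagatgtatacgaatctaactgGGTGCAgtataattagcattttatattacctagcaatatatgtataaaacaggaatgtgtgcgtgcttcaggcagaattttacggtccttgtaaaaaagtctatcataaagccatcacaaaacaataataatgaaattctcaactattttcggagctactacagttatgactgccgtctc

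The oleate element begins 209 bases before the start codon in CTA1, 188 in POT1 and 173 in ECI1. TGACTC begins 177 bases before it in ADE17, 174 in MTD1 and 227 in SHM2, while the Aft1 core occurs at 193 and 137 bases in ENB1 and at 249 and 130 bases in FIT2. All motifs were searched on both strands of such windows, matches of different motifs may overlap, and the oleate and Aft1 motifs were added after values had been seen. The oleate element occurred in 52.2% of the promoters of the list of peroxisome and fatty acid oxidation genes against 4.10% of all 5759 promoters. A match is a run of letters in this window, not a bound site, and FOX2, POX1, PHO84 and ARN2, which also lead their groups, hold no match of the motif looked for in theirs.

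The FPKM of the 12 libraries summed to between 1152780 and 1283727, 23 to 33 genes were listed at 0, and libraries of a group correlated across genes at 0.992 to 0.998; the number of reads behind a value is unknown. GCN5 itself, which the mutation changes in protein and not necessarily in amount of RNA, had 21.6, 21.4 and 21.9 FPKM in Gcn5m in sucrose and 17.1, 21.1 and 21.5 FPKM in Gcn5m in glucose, against 33.5, 32.5 and 35.2 FPKM in WT in sucrose and 32.2, 26.4 and 30.7 FPKM in WT in glucose. Its interaction was -0.06 ± 0.13 (SE; limma adjusted p = 0.743). The strain markers fitted MATa cells only in part. STE2, a MATa gene, lay at 232 to 331 FPKM in Gcn5m and 364 to 401 FPKM in WT. Among genes of the other mating type, STE3 lay at 0.732 to 1.31 FPKM in Gcn5m and 2.43 to 3.99 FPKM in WT. MF(ALPHA)2 lay at 7.18 to 8.62 FPKM in Gcn5m and 6.57 to 10.9 FPKM in WT. SAG1, also of the other mating type, was not near 0, at 16.2 to 31.1 FPKM in Gcn5m and 23.6 to 26.8 FPKM in WT. URA3, disrupted in BY4741, lay at 223 to 444 FPKM in Gcn5m libraries and 0 to 2.30 FPKM in WT libraries, so that its own interaction cannot be read. Every interaction below therefore compares strains that differ in URA3 transcript as well as in Gcn5, and these cannot be told apart. Of the other auxotrophic loci of BY4741 looked at, LEU2 and MET17 were listed at 0 in all 12. HIS3 was not near 0 in either strain, at 63.99 to 119.9 FPKM in Gcn5m and 58.9 to 95.4 FPKM in WT. The cause was not tested. In bulk RNA, fewer cells of a type and less RNA per cell cannot be told apart.

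The sucrose response differed between Gcn5m and WT for 2431 of 5841 genes, 41.6% of those tested, at a Benjamini-Hochberg adjusted p under 0.05 in limma. The interaction was positive (the sucrose-minus-glucose difference was the more positive one in Gcn5m) for 1220 genes (20.9%) and negative for 1211 genes (20.7%), and its median over all genes was 0.00. Differences of at least 2-fold were few: 176 genes (3.01%), 111 of them positive and 65 negative. Among single libraries, the 9 possible sucrose-minus-glucose differences in Gcn5m lay wholly outside the 9 in WT for 2083 genes (35.7%). Below, a value after a gene is its interaction ± SE from 3 libraries per group, past that test unless an adjusted p is given.

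**Figure D1:**
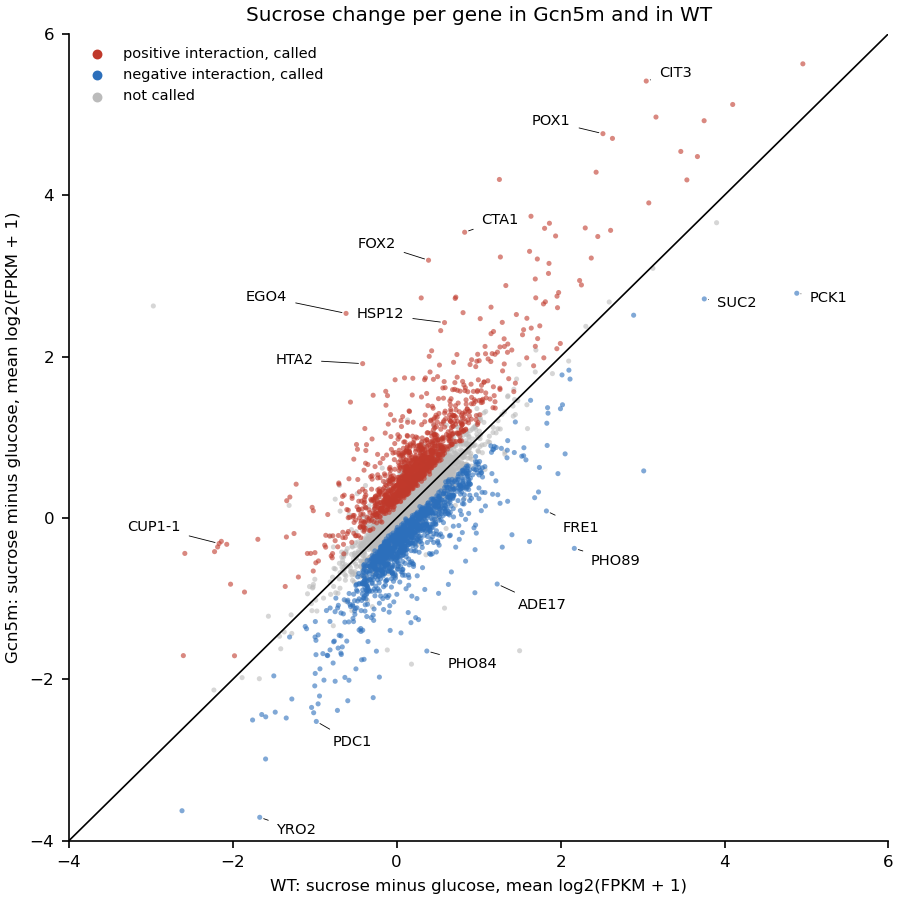
Sucrose-minus-glucose difference of mean log2(FPKM + 1) in Gcn5m (vertical) against WT (horizontal) for the tested genes, with 3 genes outside the axes; the line marks equal differences, red points are called positive interactions, blue points called negative ones and grey points not called. FOX2, at 3.19 in Gcn5m and 0.39 in WT, lies far above the line, and PHO89, at -0.38 in Gcn5m and 2.17 in WT, far below it.

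Most called genes moved the same way in both strains and further in Gcn5m. Of the 2431 called genes, 1381 (56.8%) had a difference of the same sign and larger size in Gcn5m than in WT, 400 (16.5%) had a smaller one of the same sign and 650 (26.7%) one of opposite sign. Positive interactions were mostly of the first kind, with 887 larger, 70 smaller and 263 opposite, while negative ones held 494 larger, 330 smaller and 387 opposite. The strains' mean levels lay further apart in sucrose than in glucose for 1650 called genes (67.9%). On the linear FPKM scale the difference of differences kept its sign for 2365 (97.3%).

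Genes of peroxisomes and fatty acid oxidation, kept in a single list, had almost uniformly positive interactions. Yeast oxidises fatty acids only in peroxisomes, through the acyl-CoA oxidase Pox1, the hydratase-dehydrogenase Fox2 and the thiolase Pot1, with catalase A (Cta1) removing the peroxide. Of 23 tested genes of the list, 20 had a positive and 0 a negative interaction, with a median of 0.91. In all 20 the sucrose difference was larger in Gcn5m than in WT with the same sign, and in all 20 the strains lay further apart in sucrose.

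FOX2 (YKR009C, chrXI:454352-457054) had 111, 109.9 and 109 FPKM in Gcn5m in sucrose and 10.9, 11.6 and 10.9 FPKM in Gcn5m in glucose, against 17.6, 16.9 and 17.5 FPKM in WT in sucrose and 13.3, 12.8 and 12.98 FPKM in WT in glucose. The Gcn5m sucrose libraries stood far above the other 9, which lay close together, and the interaction was 2.80 ± 0.06. CTA1 showed the same order, with 215, 209 and 193 FPKM in Gcn5m sucrose libraries and 15.8, 16.5 and 18.01 in Gcn5m glucose libraries, against 35.2, 32.3 and 34.4 in WT sucrose libraries and 19.1, 17.5 and 19.4 in WT glucose libraries. Its sucrose-minus-glucose difference was 3.54 in Gcn5m and 0.83 in WT, an interaction of 2.71 ± 0.09. POX1 had 186, 176 and 179.6 FPKM in Gcn5m in sucrose and 5.64, 6.13 and 5.33 FPKM in Gcn5m in glucose, against 32.7, 31.03 and 30.4 FPKM in WT in sucrose and 4.44, 4.54 and 5.00 FPKM in WT in glucose; here WT also stood higher in sucrose, and the interaction was 2.25 ± 0.11. POT1 followed at 2.10 ± 0.11, and the isomerases ECI1 at 1.78 ± 0.15 and DCI1 at 2.01 ± 0.14. Outside the list, the peroxisomal lipase gene LPX1 had an interaction of 2.43 ± 0.12 and PEX9, an import receptor for matrix proteins that is made on oleate, 2.02 ± 0.16. PEX11, which divides peroxisomes, was at 1.01 ± 0.08 and PEX5, the general import receptor, at 0.41 ± 0.12. Of the regulators that bind the oleate element, PIP2 was at 0.63 ± 0.09 and OAF1 at 0.10 ± 0.09 (limma adjusted p = 0.397). FAA1, which activates imported fatty acids, was at 1.16 ± 0.05, and 9 of 15 genes of fatty acid synthesis and activation had a positive and 2 a negative interaction (9 and 5 with quantile normalization).

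**Figure D2:**
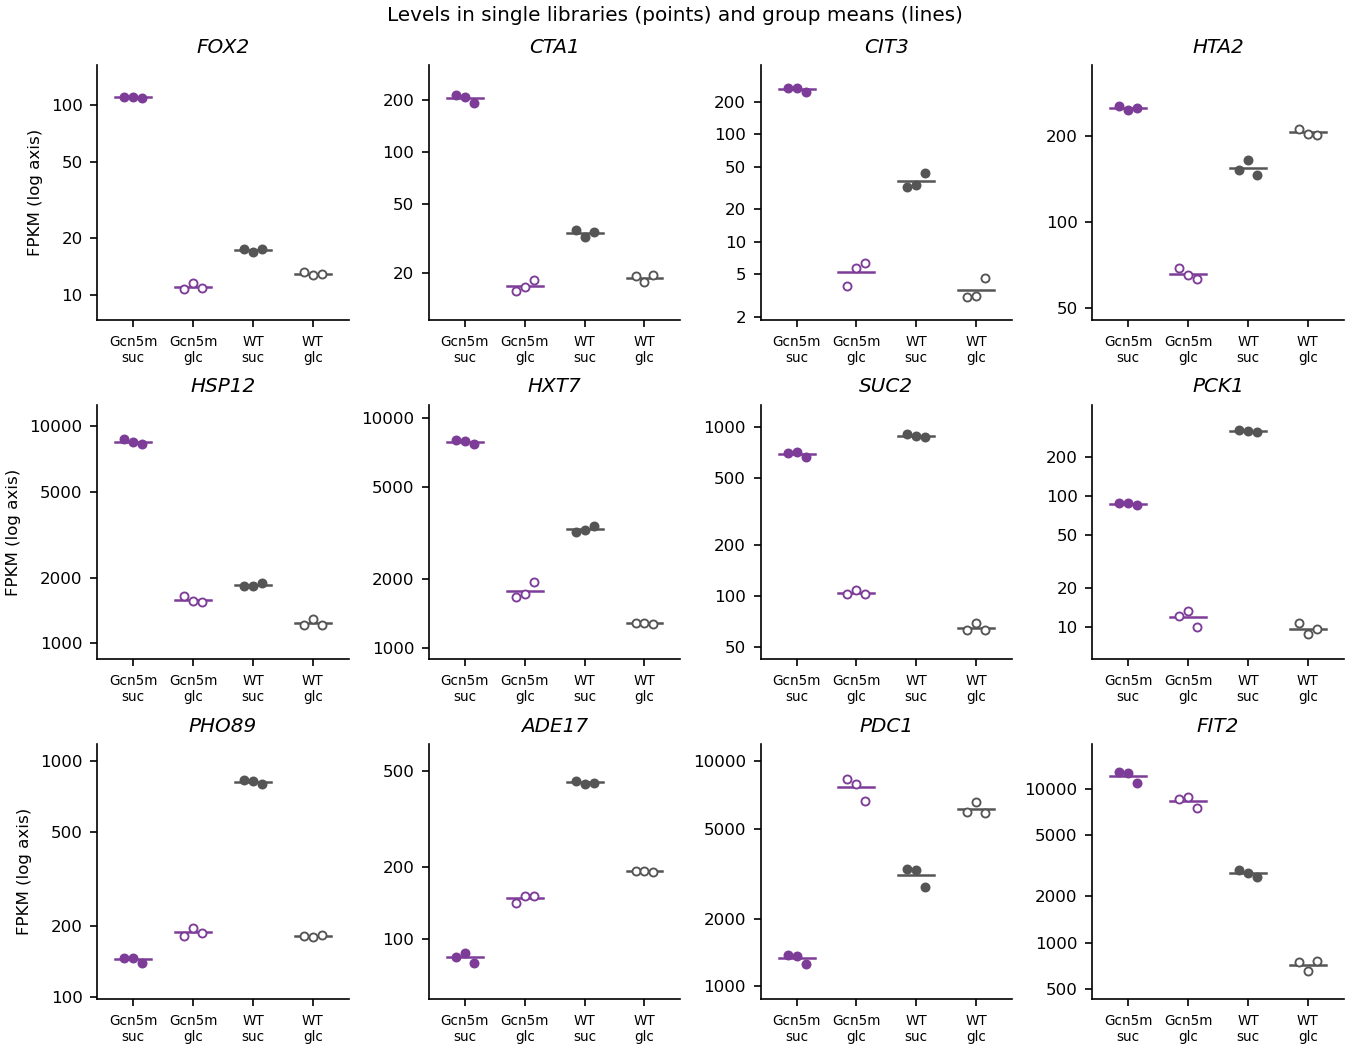
FPKM on log axes in single libraries (points) and group means (lines) of 12 genes, with sucrose filled and glucose open, Gcn5m in purple and WT in grey. In the FOX2, CTA1 and HSP12 panels the 3 Gcn5m sucrose libraries stand above all others, and in the PHO89 and ADE17 panels the 3 WT sucrose libraries do.

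Genes for growth on non-sugar carbon split in opposite directions. Of 22 tested genes of gluconeogenesis and the glyoxylate cycle, 15 had a positive and 6 a negative interaction, with a median of 0.66. Carnitine and propionate genes were on the positive side. CIT3, the mitochondrial methylcitrate synthase, had 271, 269 and 248 FPKM in Gcn5m sucrose libraries and 3.87, 5.65 and 6.27 in Gcn5m glucose libraries, against 32.5, 33.9 and 43.6 in WT sucrose libraries and 3.04, 3.12 and 4.56 in WT glucose libraries; Gcn5m and WT were alike in glucose and apart in sucrose, at 2.37 ± 0.19. ICL2, its partner lyase, was at 1.85 ± 0.09, the carnitine acetyltransferase CAT2 at 1.80 ± 0.11, the acetate transporter ADY2 at 1.41 ± 0.11 and the acetyl-CoA synthetase ACS1 at 1.02 ± 0.09. The 6 negative members included PCK1 and FBP1, both enzymes of gluconeogenesis. PCK1 (YKR097W, chrXI:631152-632801), phosphoenolpyruvate carboxykinase, had 88.1, 87.7 and 85.3 FPKM in Gcn5m in sucrose and 12.2, 13.3 and 10.1 FPKM in Gcn5m in glucose, against 319, 316 and 307 FPKM in WT in sucrose and 10.7, 8.79 and 9.69 FPKM in WT in glucose. The sucrose libraries of Gcn5m lay well below those of WT while the glucose libraries overlapped, and the interaction was -2.10 ± 0.14. FBP1, fructose-1,6-bisphosphatase, had an interaction of -1.26 ± 0.13, the succinate-fumarate carrier SFC1 -0.76 ± 0.23 and the isocitrate lyase ICL1 -0.24 ± 0.09, a call lost in 9 of the 12 fits that left out 1 library (limma adjusted p up to 0.0974). MLS1, malate synthase, was at -0.03 ± 0.15 (limma adjusted p = 0.884). The activators Cat8 and Adr1, which switch on these genes when glucose is gone, had transcripts at 0.54 ± 0.09 and 0.79 ± 0.06, and SIP4, a further activator, was at -0.47 ± 0.14.

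Genes for sucrose use and hexose uptake were called about as often as genes in general (41.6%), with members on both sides. SUC2 (YIL162W, chrIX:37385-38983), the invertase gene, had 698, 706 and 663 FPKM in Gcn5m in sucrose and 102, 108 and 103 FPKM in Gcn5m in glucose, against 908, 880.5 and 868 FPKM in WT in sucrose and 63.03, 68.96 and 62.4 FPKM in WT in glucose. Both strains had far more in sucrose, by 2.71 in Gcn5m and 3.75 in WT, and the smaller difference in Gcn5m, with its higher glucose level and lower sucrose level, gave -1.04 ± 0.08. Of 14 tested genes for sucrose, maltose and isomaltose, 4 had a positive and 2 a negative interaction. MAL12, a maltase at -0.51 ± 0.16, and the isomaltases IMA3 at 0.87 ± 0.12 and IMA4 at 0.83 ± 0.12 have near-identical copies between which reads may be split, and MAL12 lost its call without Gcn5m in glucose replicate 2 (-0.45, limma adjusted p = 0.0509) and without Gcn5m in sucrose replicate 3 (-0.41, limma adjusted p = 0.0584). Among 20 hexose transport genes, 7 were positive and 3 negative. HXT7, a high-affinity glucose transporter, had 8001, 7952 and 7713 FPKM in Gcn5m sucrose libraries and 1672, 1713 and 1937 in Gcn5m glucose libraries, against 3178, 3239 and 3399 in WT sucrose libraries and 1279, 1283 and 1269 in WT glucose libraries, and its interaction was 0.80 ± 0.06; its near-identical neighbour HXT6 was at 0.81 ± 0.07. The transporters HXT1, used at high glucose, and HXT4 were at -0.92 ± 0.09 and -0.88 ± 0.06. HXK2, the main hexokinase in glucose, was at -0.76 ± 0.06, GLK1, glucokinase, at 0.53 ± 0.06, and HXK1, the hexokinase made off glucose, at 0.12 ± 0.06 (limma adjusted p = 0.113; 0.19 with quantile normalization, limma adjusted p = 0.0293). MIG1, the repressor that acts in glucose, was at 0.49 ± 0.07, and GAL1, galactokinase, at 0.64 ± 0.16; GLK1 and GAL1 overlap another annotated gene, and the strand setting of the counting is not given in the sources used here.

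Glycolytic and fermentative genes mostly had negative interactions. Of 22 tested, 3 had a positive and 16 a negative interaction, with a median of -0.55, and 18 of the 19 called ones had a difference of the same sign and larger size in Gcn5m. PDC1, the main pyruvate decarboxylase, had 1371, 1366 and 1255 FPKM in Gcn5m in sucrose and 8344, 7974 and 6688 FPKM in Gcn5m in glucose, against 3338, 3303 and 2763 FPKM in WT in sucrose and 5984, 6614 and 5912 FPKM in WT in glucose. It was lower in sucrose in both strains and lowest in Gcn5m in sucrose, at -1.54 ± 0.11. The glyceraldehyde-3-phosphate dehydrogenase TDH2 was at -1.33 ± 0.07 and the enolase ENO2 at -1.08 ± 0.07, both with a near-identical copy. ADH2, the alcohol dehydrogenase that consumes ethanol, went the other way, with 1171, 1158 and 1073 FPKM in Gcn5m sucrose libraries and 91.5, 87.01 and 101 in Gcn5m glucose libraries, against 402, 426 and 344 in WT sucrose libraries and 69.4, 97.9 and 70.3 in WT glucose libraries and an interaction of 1.29 ± 0.15. Among reserve carbohydrate genes, 11 of 19 were positive and 2 negative, among them the glycogen synthase GSY2 at 0.62 ± 0.07, the trehalase ATH1 at 0.56 ± 0.07 and the trehalose synthase subunit TSL1 at 0.51 ± 0.09.

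Genes of the respiratory chain were called about as often as genes in general (41.6%), with members on both sides. Of 40 genes of the respiratory chain and ATP synthase, 7 had a positive and 8 a negative interaction, with a median of -0.03; with quantile normalization the counts were 6 and 14. Of 18 genes of the citric acid cycle 6 were positive and 5 negative. CYC1, the main cytochrome c, had 31.6, 35.4 and 27.8 FPKM in Gcn5m in sucrose and 31.5, 45.2 and 34.1 FPKM in Gcn5m in glucose, against 179, 176 and 178 FPKM in WT in sucrose and 57.05, 70.6 and 72.5 FPKM in WT in glucose. Gcn5m libraries in both media lay below all WT libraries and did not separate by medium, and the interaction was -1.61 ± 0.19. CYC7, the second cytochrome c, was at 1.11 ± 0.10, the external NADH dehydrogenase NDE2 at 1.27 ± 0.08 and the lactate dehydrogenase CYB2 at 0.94 ± 0.08. In the citric acid cycle, pyruvate carboxylase PYC1 was at 1.18 ± 0.06, citrate synthase CIT1 at 0.70 ± 0.07 and the isocitrate dehydrogenase subunit IDH2 at -0.41 ± 0.06; the IDH2 call was lost with quantile normalization (-0.15, limma adjusted p = 0.0652). HAP4, the activating subunit of the Hap complex that drives respiratory genes, had 630.2, 606 and 619.8 FPKM in Gcn5m sucrose libraries and 185, 194 and 182 in Gcn5m glucose libraries, against 259.8, 259.9 and 262 in WT sucrose libraries and 186, 189 and 196 in WT glucose libraries, an interaction of 1.27 ± 0.05. CIT2, the peroxisomal citrate synthase that reports the retrograde pathway, was at 1.03 ± 0.07. Mitochondrial ribosomal protein genes were different: 2 of 66 were positive and 35 negative, with a median of -0.21, and in 35 of the 37 called ones the sucrose difference had the same sign and was smaller in Gcn5m. In the same number of called genes the strains lay further apart in glucose than in sucrose; MRPL44 at -0.61 ± 0.10 and RSM26 at -0.59 ± 0.07 led.

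General stress genes, driven by Msn2 and Msn4 from the element AGGGG, mostly had positive interactions. Of 32 tested, 21 were positive and 6 negative, with a median of 0.44. HSP12, a small membrane-stabilising heat shock protein, had 8753, 8436 and 8322 FPKM in Gcn5m in sucrose and 1648, 1564 and 1548 FPKM in Gcn5m in glucose, against 1833, 1838 and 1889 FPKM in WT in sucrose and 1215, 1288 and 1206 FPKM in WT in glucose. Gcn5m in sucrose was far above the other groups and the interaction was 1.84 ± 0.06. HSP26, a small chaperone, was at 2.00 ± 0.09, and SIP18, a desiccation-induced hydrophilin, at 1.97 ± 0.21. Cytosolic catalase, CTT1, reached its positive value differently, with 14.5, 12.7 and 12.97 FPKM in Gcn5m sucrose libraries and 19.3, 17.4 and 14.7 in Gcn5m glucose libraries, against 16.9, 18.1 and 18.6 in WT sucrose libraries and 80.6, 75.99 and 78.6 in WT glucose libraries. WT in glucose stood alone above the other groups, and the interaction was 1.75 ± 0.12. The promoters of genes with a positive interaction held AGGGG on either strand in 33.3% of 1188 cases, against 13.8% of 1210 promoters with a negative one and 21.7% of all 5759. Chaperones of the heat shock type were mixed, 5 of 24 positive and 12 negative. SSA4, the stress-induced Hsp70, was at 1.53 ± 0.09, while the constitutive SSA2, which has a near-identical copy, and the co-chaperone YDJ1 were at -0.71 ± 0.07 and -0.56 ± 0.06. Among 25 redox genes 12 were positive and 5 negative, with the peroxiredoxin TSA2 at 1.07 ± 0.11 and YHB1, a flavohemoglobin that removes nitric oxide and lies outside the list, at -1.76 ± 0.12.

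All 10 tested histone genes had a positive interaction, with a median of 1.25. HTA2 (YBL003C, chrII:235394-235792), 1 of a pair of genes for histone H2A, had 254, 247 and 251 FPKM in Gcn5m in sucrose and 69.1, 65.1 and 63.3 FPKM in Gcn5m in glucose, against 152, 165 and 146 FPKM in WT in sucrose and 212, 204 and 202 FPKM in WT in glucose. Gcn5m was lowest of all in glucose and highest in sucrose, WT lay between and was lower in sucrose, and the interaction was 2.33 ± 0.07. HTB2, for H2B, had 522, 473 and 482 FPKM in Gcn5m sucrose libraries and 171, 177 and 166 in Gcn5m glucose libraries, against 284, 278 and 294 in WT sucrose libraries and 336, 268 and 326 in WT glucose libraries and an interaction of 1.63 ± 0.09. These are the 2 of the 10 genes in which the strains lay further apart in glucose; in the other 8 they lay further apart in sucrose, and in 7 of the 10 the strains' sucrose differences had opposite signs. The H4 genes HHF1 and HHF2 were at 1.70 ± 0.06 and 1.73 ± 0.10, and the H3 genes HHT1 and HHT2 at 1.36 ± 0.08 and 1.15 ± 0.08. The linker histone gene HHO1 and the H2A.Z variant gene HTZ1 were at 0.25 ± 0.09 and 0.38 ± 0.09; the HHO1 call was lost in 8 of the 12 fits that left out 1 library (limma adjusted p up to 0.106). HTA2, HHF1 and HHF2 each have a near-identical copy elsewhere in the genome. Histone transcripts are made mainly in S phase. Of 31 cell cycle regulators 2 had a positive and 14 a negative interaction (4 and 11 with quantile normalization), with RNR1, the ribonucleotide reductase subunit made at the start of S phase, at -0.93 ± 0.11, FAR1, an inhibitor of G1 cyclin kinase, at -1.31 ± 0.07 and the M/G1 repressor YHP1 at -1.34 ± 0.12. The part of cell cycle position in the histone values was not tested.

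In most lists of growth genes the called interactions were largely negative and of small size. Over all tested genes 20.9% were positive and 20.7% negative. Of 138 cytosolic ribosomal protein genes, 0 had a positive and 91 a negative interaction, with a median of -0.25 and a range from -0.59 to 0.23. In 87 of the 91 called ones the sucrose difference was of the same sign and larger in Gcn5m, and in 90 the strains lay further apart in sucrose. RPS2, for a protein of the small subunit, had 2442, 2404 and 2219 FPKM in Gcn5m in sucrose and 3947, 3883 and 4173 FPKM in Gcn5m in glucose, against 3382, 3341 and 3707 FPKM in WT in sucrose and 3977, 4236 and 4028 FPKM in WT in glucose, and its interaction was -0.53 ± 0.07. Of 98 ribosome biogenesis genes 4 were positive and 43 negative, with a median of -0.18; 24 of the 47 called ones had differences of opposite sign in the strains. The assembly factors MRT4 at -0.64 ± 0.08 and DBP8 at -0.64 ± 0.09 led. Their motif AAATTTT occurred in 95.9% of the promoters of the list, in 29.8% of promoters with a negative interaction, in 17.9% of those with a positive one and in 23.5% of all. At interactions of at least 2-fold its share was below that of all promoters on both sides, 13.85% of 65 negative and 8% of 100 positive. RNA polymerase I and III genes were called about as often as genes in general (41.6%). They were positive in 3 of 33 and negative in 11, with a median of -0.06 and the polymerase I subunit RPA49 at -0.62 ± 0.08. Regulators of ribosome genes were positive in 3 of 12 and negative in 3, with a median of 0.07. Translation factors and tRNA synthetases were positive in 2 of 45 and negative in 25, with the lysyl-tRNA synthetase KRS1 at -0.54 ± 0.05. With quantile normalization the ribosome biogenesis counts became 0 positive and 58 negative.

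**Figure D3:**
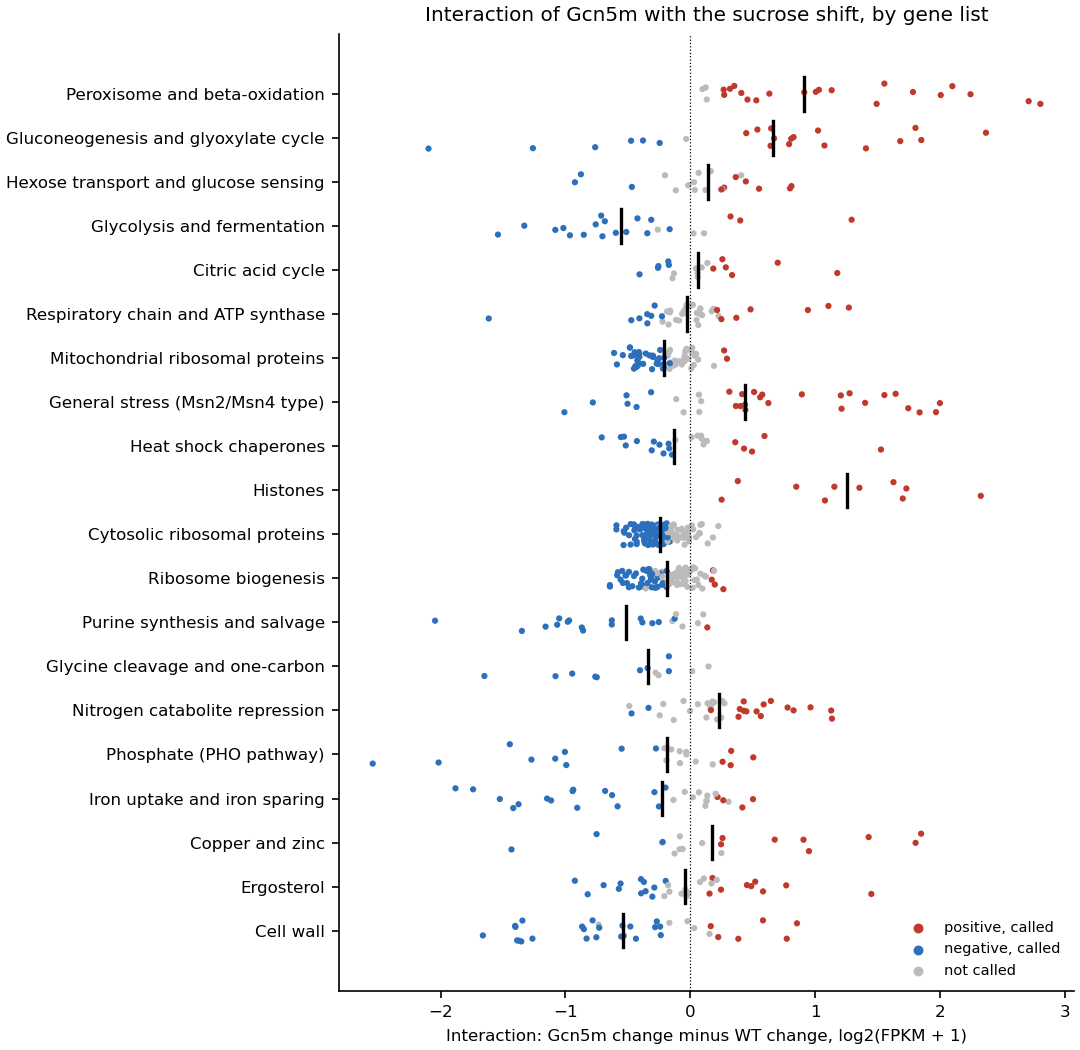
Interaction of every tested member of 20 gene lists (points, red called positive, blue called negative, grey not called), with the list median as a bar and 0 as a dotted line. All 10 histone genes lie right of 0, and the 138 cytosolic ribosomal protein genes lie between -0.59 and 0.23.

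Genes of purine and one-carbon synthesis mostly had negative interactions. Purines are built on glycine and on formyl groups carried by folate, and Bas1 with Bas2 drives both sets of genes. Of 22 purine genes 1 had a positive and 16 a negative interaction, with a median of -0.51, and in 12 of the 17 called ones the strains' differences had opposite signs. Of 13 genes of glycine cleavage and one-carbon transfer 0 were positive and 9 negative. ADE17 (YMR120C, chrXIII:507502-509280) had 84.00, 87.2 and 79.6 FPKM in Gcn5m in sucrose and 142, 151 and 151 FPKM in Gcn5m in glucose, against 456, 442 and 448 FPKM in WT in sucrose and 192, 192 and 189 FPKM in WT in glucose. WT was higher in sucrose and Gcn5m lower, with no overlap, and the interaction was -2.04 ± 0.06. ADE4, which starts the pathway, was at -1.35 ± 0.08, ADE2 at -1.16 ± 0.05 and HPT1, which salvages hypoxanthine and guanine, at -1.07 ± 0.07. MTD1 had 59.5, 63.4 and 60.3 FPKM in Gcn5m sucrose libraries and 80.7, 82.1 and 73.4 in Gcn5m glucose libraries, against 380.5, 374 and 358 in WT sucrose libraries and 156, 148 and 149 in WT glucose libraries; its interaction was -1.65 ± 0.07. SHM2 was at -0.95 ± 0.07 and GCV1, of the glycine cleavage system, at -1.08 ± 0.11. TGACTC, shown in the promoters of ADE17, MTD1 and SHM2, occurred in 38.1% of purine and 61.5% of one-carbon promoters against 8.02% of all. Over all called genes it hardly differed by direction, at 9.09% of promoters with a negative interaction and 9.26% of those with a positive one.

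Amino acid genes were divided. Of 47 genes of the Gcn4 type 11 had a positive and 20 a negative interaction. The serine genes SER2 at -1.48 ± 0.10 and SER33 at -0.86 ± 0.07 were negative, and CPA1, of arginine synthesis, was positive at 1.01 ± 0.05. S-adenosylmethionine synthetases were negative, with SAM1 at 235, 235 and 222 FPKM in Gcn5m in sucrose and 567, 539 and 527 FPKM in Gcn5m in glucose, against 487, 489 and 440.3 FPKM in WT in sucrose and 397, 413 and 393 FPKM in WT in glucose and an interaction of -1.47 ± 0.06, and SAM2 at -1.15 ± 0.09. MET13, which makes methyltetrahydrofolate for methionine, was positive at 1.02 ± 0.09. Genes under nitrogen catabolite repression, for poor nitrogen sources, were positive in 15 of 34 and negative in 2, or 14 and 4 with quantile normalization. The proline oxidase PUT1 at 1.13 ± 0.10, the ornithine transaminase CAR2 at 1.14 ± 0.11 and the broad amino acid permease AGP1 at 0.96 ± 0.07 were examples.

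The largest negative interaction among the genes named by the rule was in phosphate transport. PHO89 (YBR296C, chrII:796798-798522), a sodium-phosphate cotransporter, had 146, 146 and 139 FPKM in Gcn5m in sucrose and 181, 194 and 185 FPKM in Gcn5m in glucose, against 825, 818 and 798 FPKM in WT in sucrose and 181, 178 and 181 FPKM in WT in glucose. The WT sucrose libraries stood far above the other 9 and Gcn5m was lower in sucrose than in glucose, at -2.54 ± 0.07. PHO84, the high-affinity transporter, had 77.3, 81.1 and 74.2 FPKM in Gcn5m sucrose libraries and 245, 251 and 239.6 in Gcn5m glucose libraries, against 974, 997 and 910.2 in WT sucrose libraries and 742, 759 and 729 in WT glucose libraries. Gcn5m lay below WT in both media and lowest in sucrose, and the interaction was -2.02 ± 0.09; PHO84 overlaps another annotated gene. Of 23 PHO pathway genes 4 had a positive and 9 a negative interaction, with the vacuolar polyphosphate gene PHM6 at -1.45 ± 0.23.

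Iron and copper genes differed mainly through their glucose levels. Of 30 genes of iron uptake and sparing, 4 had a positive and 16 a negative interaction, and in 16 of the 20 called ones the strains lay further apart in glucose. FIT2 had 12845, 12537 and 10913 FPKM in Gcn5m in sucrose and 8491, 8778 and 7517 FPKM in Gcn5m in glucose, against 2939, 2838 and 2669 FPKM in WT in sucrose and 751, 650.0 and 759 FPKM in WT in glucose. Gcn5m was the higher strain in both media, and the interaction was -1.42 ± 0.11. ARN2, a siderophore transporter, had 188, 189.5 and 185 FPKM in Gcn5m sucrose libraries and 348, 339 and 386 in Gcn5m glucose libraries, against 91.3, 92.9 and 94.4 in WT sucrose libraries and 48.3, 45.6 and 48.5 in WT glucose libraries; the sucrose level was below the glucose level in Gcn5m and above it in WT, at -1.88 ± 0.07. The reductases FRE1 and FRE7 were at -1.74 ± 0.07 and -1.91 ± 0.08, the enterobactin transporter ENB1 at -1.53 ± 0.08 and the copper transporter CTR1 at -1.43 ± 0.05. CUP1-1, a copper metallothionein with a tandem copy, had 123, 131 and 127 FPKM in Gcn5m in sucrose and 165, 167 and 145 FPKM in Gcn5m in glucose, against 483, 487 and 492 FPKM in WT in sucrose and 2342, 1968 and 2279 FPKM in WT in glucose. WT in glucose held by far the most and the interaction was 1.85 ± 0.09. TGCACC occurred in 46.7% of iron promoters against 6.95% of all. Over all called genes it hardly differed by direction, at 7.7% of promoters with a negative interaction and 8.2% of those with a positive one.

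Cell wall genes mostly had negative interactions. Of 34 cell wall genes 6 had a positive and 23 a negative interaction, with a median of -0.54, and in 28 of the 29 called ones the difference had the same sign and was larger in Gcn5m. CWP1, a mannoprotein, is counted with the low-oxygen genes and not in this list. It had 388, 369 and 364 FPKM in Gcn5m sucrose libraries and 1792, 1851 and 1618 in Gcn5m glucose libraries, against 904, 888 and 818 in WT sucrose libraries and 1088, 1017 and 1077 in WT glucose libraries, an interaction of -1.94 ± 0.07. In the cell wall list, the glucanase SCW10 was at -1.66 ± 0.08 and SLT2, the kinase of the cell wall integrity pathway, at -1.40 ± 0.05. The wall proteins CIS3 and PIR3 were at -1.40 ± 0.08 and -1.39 ± 0.06. Low-oxygen genes were positive in 8 of 17 and negative in 2, with CWP1 the most negative. On the positive side, TIP1, a wall mannoprotein, was at 1.64 ± 0.07 and ROX1, the repressor of hypoxic genes, at 1.02 ± 0.07. DAN1, a mannoprotein made without oxygen, had 1.26, 2.21 and 2.40 FPKM in Gcn5m sucrose libraries and 2.22, 3.34 and 3.40 in Gcn5m glucose libraries, against 1.41, 2.13 and 1.50 in WT sucrose libraries and 12.97, 16.1 and 15.98 in WT glucose libraries. Its interaction was 2.15 ± 0.25, with WT in glucose alone above a few FPKM. Of 33 ergosterol genes 9 were positive and 12 negative, with SUT1, a regulator of sterol uptake, at 1.45 ± 0.08 and the synthesis genes ERG4 and ERG5 at -0.92 ± 0.09 and -0.82 ± 0.11. Of 21 SAGA subunit genes 1 was positive, SGF11 of the deubiquitinase module at 0.32 ± 0.11, and 1 negative, HFI1 at -0.61 ± 0.16; with quantile normalization 2 were positive and 1 negative. The SGF11 call was lost in 6 of the 12 fits that left out 1 library (limma adjusted p up to 0.0955).

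The remaining genes with the largest interactions belong to no list. EGO4 (YNR034W-A, chrXIV:692561-692857) had 191, 185 and 179 FPKM in Gcn5m in sucrose and 35.02, 30.8 and 27.8 FPKM in Gcn5m in glucose, against 74.2, 71.1 and 74.5 FPKM in WT in sucrose and 123, 103 and 113 FPKM in WT in glucose. Sucrose libraries were above glucose libraries in Gcn5m and below them in WT, and the interaction was the largest of the genes named by the rule, 3.15 ± 0.10. YIG1 had 75.2, 70.4 and 69.2 FPKM in Gcn5m sucrose libraries and 2.80, 3.82 and 2.39 in Gcn5m glucose libraries, against 9.59, 8.38 and 10.8 in WT sucrose libraries and 3.12, 3.47 and 3.71 in WT glucose libraries, at 2.94 ± 0.17. SPG4, a stationary phase gene, was at 2.07 ± 0.10, and YRO2, a membrane protein related to Hsp30, had 210.2, 224 and 194 FPKM in Gcn5m in sucrose and 2808, 2682 and 2739 FPKM in Gcn5m in glucose, against 1880.4, 1921 and 1952 FPKM in WT in sucrose and 6163, 6092 and 6063 FPKM in WT in glucose and an interaction of -2.04 ± 0.11. YJR120W, an uncharacterised gene, was at -2.43 ± 0.55 with widely spread libraries: 130.2, 527 and 487 FPKM in Gcn5m in sucrose and 184, 333 and 162 FPKM in Gcn5m in glucose, against 664, 376 and 543 FPKM in WT in sucrose and 67.1, 45.6 and 80.4 FPKM in WT in glucose.

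Whether a gene responds to sucrose in WT can be read without using the same libraries, from the WT of the Ada3-3KR experiment. Of 92 genes that rose at least 2-fold there, 48 had a positive and 28 a negative Gcn5m interaction, with a median of 0.18. Of 19 that fell at least 2-fold, 8 were positive and 7 negative, with a median of -0.02. Of 3102 genes with no called sucrose change there, 519 were positive and 520 negative. Among 743 genes that fell by less than 0.58 on the log2 scale, 135 were positive and 293 negative, with a median of -0.12, and among 1602 that rose by less than that 425 were positive and 273 negative, with a median of 0.04.

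**Figure D4:**
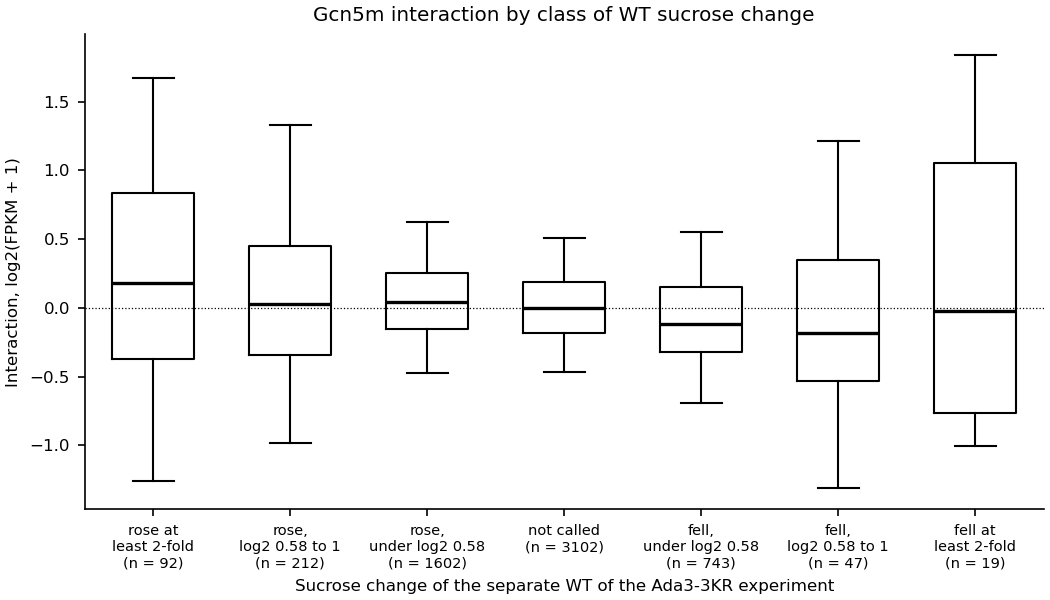
Gcn5m interaction (vertical, log2 scale) for genes classed by the sucrose change of the separate WT of the Ada3-3KR experiment; boxes show median and quartiles, whiskers the 5th and 95th percentiles. The median is 0.18 for the 92 genes that rose at least 2-fold and 0.00 for the 3102 genes not called, and the boxes are widest at both ends.

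The Gcn5m response was then set against that of Spt7m, with no WT library in the comparison. The sucrose-minus-glucose difference of Gcn5m and that of Spt7m differed for 807 of 5841 genes (13.8%), being higher in Gcn5m for 370 (6.33%) and lower for 437 (7.48%). Against the WT libraries that both mutants share, 2773 of 5841 genes (47.5%) were called in Spt7m and 2431 (41.6%) in Gcn5m. The URA3 transcript stood at 223 to 444 FPKM in Gcn5m and 7079 to 11464 FPKM in Spt7m libraries, and its part in these differences was not tested.

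The sucrose differences of respiration and stress genes were mostly lower in Gcn5m than in Spt7m. In the respiratory chain and ATP synthase list 31 of 40 genes were lower and 0 higher in Gcn5m than in Spt7m, with a median of -0.55. Against the shared WT, the medians of that list were -0.03 in Gcn5m and 0.48 in Spt7m. Those of the citric acid cycle list were 0.06 in Gcn5m and 0.52 in Spt7m. CYC1 had 31.6, 35.4 and 27.8 FPKM in Gcn5m in sucrose and 31.5, 45.2 and 34.1 in Gcn5m in glucose, against 109, 122 and 152 in Spt7m in sucrose and 61.9, 51.1 and 51.7 in Spt7m in glucose; the difference between the strains' sucrose effects was -1.41 ± 0.19. COX4, a subunit of cytochrome oxidase, was at -0.83 ± 0.07 and the succinate dehydrogenase subunit SDH1 at -1.10 ± 0.11, 1 of 10 of 18 citric acid cycle genes that were lower, with 0 higher. General stress genes were lower in 25 of 32 and higher in 1, with SIP18 at -1.79 ± 0.21. Against WT, the medians of the stress list were 0.44 in Gcn5m and 0.89 in Spt7m, which share those WT libraries. FBP1 had 12.4, 12.6 and 12.2 FPKM in Gcn5m in sucrose and 6.97, 6.94 and 6.28 in Gcn5m in glucose, against 46.8, 43.3 and 58.8 in Spt7m in sucrose and 6.15, 6.70 and 7.01 in Spt7m in glucose, a difference of -1.93 ± 0.13, and PCK1 was at -1.86 ± 0.14. SUC2 had 698, 706 and 663 FPKM in Gcn5m in sucrose and 102, 108 and 103 in Gcn5m in glucose, against 965, 993 and 1126 in Spt7m in sucrose and 82.9, 79.9 and 86.6 in Spt7m in glucose, a difference of -0.90 ± 0.08. The hexose transporter HXT5, not called against WT (limma adjusted p = 0.0832), was at -1.69 ± 0.12.

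Genes higher in Gcn5m than in Spt7m included those of histones and of ribosome assembly. Histones were higher in 8 of 10 and lower in 0. Against the shared WT the histone medians were positive in both mutants, 1.25 in Gcn5m and 0.73 in Spt7m. HTA2 had 254, 247 and 251 FPKM in Gcn5m in sucrose and 69.1, 65.1 and 63.3 in Gcn5m in glucose, against 205, 213 and 198 in Spt7m in sucrose and 159, 141 and 152 in Spt7m in glucose, a difference of 1.47 ± 0.07, and HTB2 was at 1.18 ± 0.09. Ribosome biogenesis genes were higher in 60 of 98 and lower in 0, with a median of 0.27. Against the shared WT their medians were -0.18 in Gcn5m and -0.44 in Spt7m. PDC5, a pyruvate decarboxylase with little transcript while PDC1 is active, had 5.65, 6.37 and 4.86 FPKM in Gcn5m in sucrose and 9.74, 9.16 and 7.89 in Gcn5m in glucose, against 5.66, 5.09 and 5.14 in Spt7m in sucrose and 60.2, 49.8 and 55.4 in Spt7m in glucose and the largest difference among the genes named by the rule, 2.57 ± 0.15; Spt7m in glucose stood alone. Of 23 genes of peroxisomes and fatty acid oxidation 2 were higher and 2 lower. Against the shared WT the medians of that list were 0.91 in Gcn5m and 0.84 in Spt7m. Other list medians also had 1 sign in both mutants. They were 0.66 in Gcn5m and 0.92 in Spt7m for gluconeogenesis and the glyoxylate cycle, and -0.55 and -0.41 for glycolysis and fermentation. For purine genes they were -0.51 and -0.46, and for cell wall genes -0.54 and -0.41. In the comparison of Gcn5m with Spt7m, FOX2 was at 0.18 ± 0.06 (limma adjusted p = 0.0668), with an unadjusted 95% interval from 0.05 to 0.32. It passed the test with median rescaling (0.19, limma adjusted p = 0.0457), with no variance trend (0.18, limma adjusted p = 0.0401) and without Gcn5m in glucose replicate 2 (0.21, limma adjusted p = 0.0495).

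**Figure D5:**
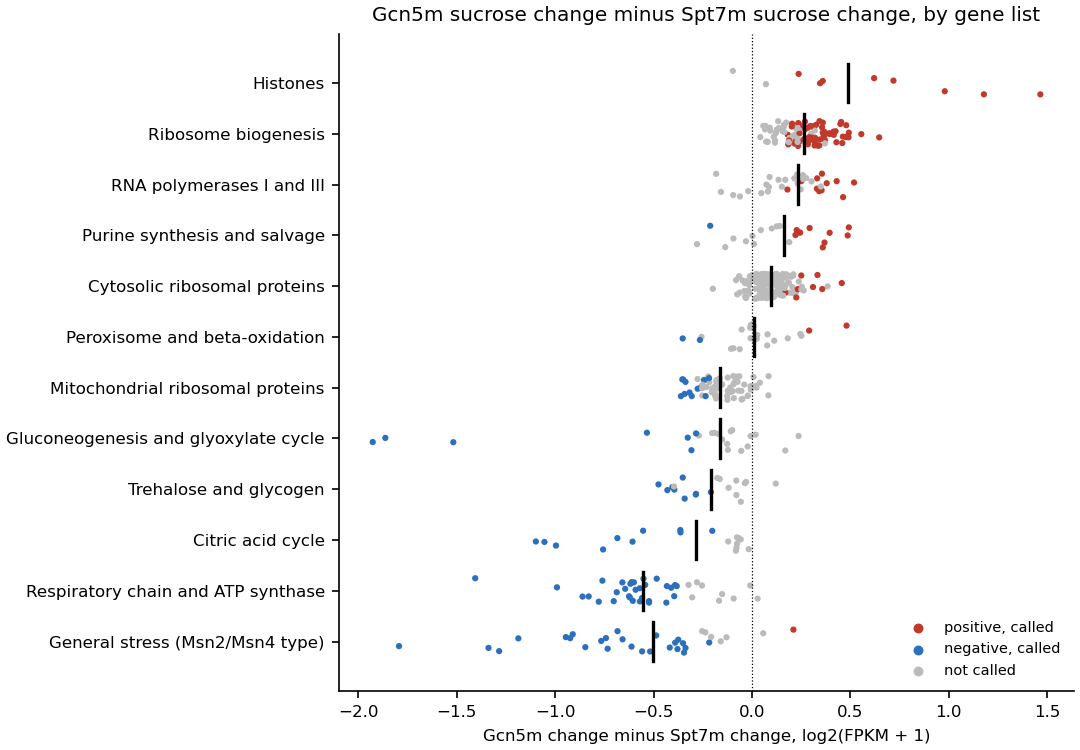
Sucrose difference of Gcn5m minus that of Spt7m for the tested members of 12 gene lists (points, red called higher in Gcn5m, blue called lower, grey not called; bars are medians). Respiratory chain and stress genes lie left of 0 with medians of -0.55 and -0.50, and histones right of it with a median of 0.49.

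Ada3-3KR, measured against its own WT in the other table, had 2264 called interactions of 5830 genes (38.8%). Among genes tested in both, 1240 were called in each, which is 51.0% of the Gcn5m calls and 54.8% of the Ada3-3KR calls, and 246 of these (19.8%) had the same sign. Over 5817 genes the interactions correlated at a Pearson r of -0.25, given as a description across genes of tables normalised separately. FOX2, at 2.80 in Gcn5m, was at -0.57 in Ada3-3KR, HSP12 was at 1.84 in Gcn5m and -0.93 in Ada3-3KR, and CIT2 at 1.03 in Gcn5m and -2.01 in Ada3-3KR. In ribosome biogenesis the median was -0.18 in Gcn5m and 0.62 in Ada3-3KR, with NSR1, a nucleolar protein, at -0.43 in Gcn5m and 1.92 in Ada3-3KR. SUC2 was negative in both, at -1.04 in Gcn5m and -2.07 in Ada3-3KR.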

How the data were processed

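RNA-seq values of 12 libraries, 3 per group, were analysed as deposited; the 6 Spt7m libraries of the same table entered the fit and 1 comparison, and the 12 of the Ada3-3KR table gave values set beside these. The authors deposited FPKM per gene. Tools listed in the submitters' processing notes are HISAT2 2.1.0, StringTie 1.3.3b and cutadapt 1.16, with R64 as the build; roles, strand setting and annotation are not given in the sources used here. FPKM already corrects for length and library size and gives no read counts, so the depth is unknown and no count test was run. Per the labels, cultures of 5 mL grown at 28 °C and 300 rpm to an OD600 of 0.7 were changed to the test medium, and libraries came from 1 µg of RNA. Of 6101 gene names, 2 turned into dates by a spreadsheet were restored and 6093 matched RefSeq.

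Values were taken as log2(FPKM + 1), a scale that understates changes of low genes. limma 3.58.1 in R 4.3.3 fitted 1 mean for each of the 6 groups of the table, with a variance trend, 12 residual degrees of freedom and Benjamini-Hochberg adjustment over the 5841 genes averaging 1 FPKM or more. For a simple comparison of 3 libraries against 3, an exact permutation test of 1 gene cannot go below p = 0.1. That limit is not the one of the interaction, which spans 4 groups. Same-numbered libraries did not deviate together (below), so replicate numbers were not used. The strains, the 48 gene lists and the rule for named genes were chosen with earlier results of these data known. The rule took 11 fixed genes, the 12 largest called interactions each way averaging 5 FPKM or more, with no overlap of single-library differences, up to 4 called members of each list with at least 3 called, 5 genes each way against Spt7m, and strain markers; other genes were added for their role in a pathway after their values were seen. Lists are described by counts and medians, with no set test. Near-identical copies were matches found with BLAST 2.17.0 that reached 90% identity across 50% of a gene or more. Promoter windows were 300 bases long. The fit was tested on simulated data. Figures were drawn with matplotlib 3.10.9 in Python 3.11.15.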

Additional observations from a re-analysis of the deposited data

Results flagged for a closer look

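The interaction is itself a test of whether strains differ in their response to the sugar, so each called gene is a difference between strains under the same contrast. That holds for 2431 genes between Gcn5m and WT and for 807 genes between Gcn5m and Spt7m. Among the genes named by the rule, the ends of these distributions were EGO4 (3.15) and YIG1 (2.94) above WT, PHO89 (-2.54), YJR120W (-2.43) and PCK1 (-2.10) below WT, PDC5 (2.57) above Spt7m and FBP1 (-1.93) below Spt7m. PDC5 was not called against WT (-0.26, limma adjusted p = 0.167), and its difference from Spt7m came with 49.8 to 60.2 FPKM in Spt7m in glucose against at most 9.74 FPKM in any Gcn5m library. Groups of 3 libraries are too small to search for a single outlying library.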

How the results depend on the processing

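The count of 2431 called interactions was 2422 with a pseudocount of 0.1, 2421 with no filter, 2399 with a filter of 5 FPKM, 2531 with quantile normalization, 2490 with median rescaling, 2380 with no variance trend and 2257 with only the compared groups in the fit. It ranged from 2196 to 2321 when 1 library was left out. Requiring at least 2-fold left 176. The count of 807 against Spt7m ranged from 730 to 874 over the same alternatives and from 616 to 817 when 1 library was left out, of which Spt7m in glucose replicate 1 gave the lowest. Quantile normalization kept 91.9% of the calls against WT with their sign. Of 136 called genes named against WT, 131 kept call and sign under every alternative; the calls of HHO1, ICL1, IDH2, MAL12 and SGF11 were lost under at least 1. The interaction of GCN5, not called, was 0.024 without WT in glucose replicate 2, and that of MLS1, not called, ranged from -0.11 to 0.056 when 1 library was left out; the cause was not tested. HXK1 passed the test with quantile normalization (0.19, limma adjusted p = 0.0293) and in 2 fits that left out 1 library, INO1 in 1 such fit and YRF1-6 in 3. FOX2 passed against Spt7m in 3 alternatives. The median of the proteasome list was 0.01, and -0.09 with quantile normalization; no other list median changed sign under the scalings. With a replicate block 2444 genes were called, and with a replicate block within strain 2333 (799 and 691 against Spt7m). The replicate numbers did not pair the libraries: the deviations of same-numbered libraries correlated at -0.16 to 0.08 between the media of a strain and at -0.29 to 0.34 over all 18 pairs, the highest being Gcn5m and WT in sucrose, replicate 1; in 9 of 36 comparisons of a library with another group the same number correlated best. Unknown depth limits what can be said of genes of a few FPKM.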

Other observations

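Lists not described above were mostly mixed. Of 20 inositol and phospholipid genes 3 had a positive and 9 a negative interaction. EPT1, an ethanolaminephosphotransferase, was at -0.92 ± 0.07, CHO2, which methylates phosphatidylethanolamine, at -0.85 ± 0.10 and PAH1, the phosphatidate phosphatase, at 0.70 ± 0.10; INO1, for inositol synthesis, was at -0.24 ± 0.14 (limma adjusted p = 0.174), but passed the test without WT in glucose replicate 3 (-0.35, limma adjusted p = 0.0303). Of 20 drug efflux genes 6 were positive and 7 negative. The polyamine exporter TPO4 had 172, 158 and 158 FPKM in Gcn5m in sucrose and 127, 133 and 147 FPKM in Gcn5m in glucose, against 132, 120.4 and 131 FPKM in WT in sucrose and 324, 300.1 and 326 FPKM in WT in glucose. WT in glucose held the most, and the interaction was 1.56 ± 0.08. QDR2, a multidrug exporter, was at -0.69 ± 0.07. Of 23 meiosis and sporulation genes 7 were positive and 0 negative, with RIM4, an RNA-binding protein of early meiosis, at 1.24 ± 0.10 and SPO24 at 0.89 ± 0.07. Of 22 pheromone response genes 3 were positive and 9 negative, with FUS1, of cell fusion, at -0.69 ± 0.12.

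Branched-chain amino acid genes had 5 positive and 4 negative members of 14, with LEU4, isopropylmalate synthase, at 0.71 ± 0.06 and BAT1, the mitochondrial transaminase, at -0.54 ± 0.08. Pyrimidine genes had 3 positive and 2 negative of 12 (2 and 6 with quantile normalization). Proteasome genes had 4 positive and 5 negative of 33 (1 and 10 with quantile normalization). Of 16 genes of the Snf1 kinase and Mig repressors 2 were positive and 2 negative, with the repressor NRG2 at -1.02 ± 0.13. In copper and zinc homeostasis 8 of 18 were positive and 3 negative; IZH4, a membrane protein regulated by zinc, had 3.26, 1.65 and 3.50 FPKM in Gcn5m sucrose libraries and 4.34, 2.58 and 3.61 in Gcn5m glucose libraries, against 18.03, 16.3 and 16.8 in WT sucrose libraries and 58.00, 54.04 and 60.01 in WT glucose libraries, at 1.43 ± 0.24.

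The subtelomeric genes YRF1-6 and YRF1-3 had larger interactions than any called gene, 8.59 ± 4.15 (limma adjusted p = 0.107) and 5.60 ± 2.70 (limma adjusted p = 0.107), and were not called. YRF1-6 passed the test in 3 of the 12 fits that left out 1 library: 11.23 without Gcn5m in glucose replicate 3 (limma adjusted p = 0.0392), 11.23 without Gcn5m in sucrose replicate 3 (limma adjusted p = 0.0390) and 11.41 without WT in sucrose replicate 1 (limma adjusted p = 0.0335). Both belong to a family of near-identical copies and were listed at 0 in some libraries and far above 0 in others of the same group: YRF1-6 had 246, 235 and 0 FPKM in Gcn5m in sucrose, against 354, 0 and 0 FPKM in WT in sucrose.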
